A study of Mus musculus with 12 samples.

Results

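The genes described here are 9 cytokines and growth factors of inflammation and 1 cytokine receptor, measured in mouse kidney: Il6, Il11, Lif and Osmr of the interleukin-6 family, Il1b, Il18 and Il33 of the interleukin-1 family, Tnf, and the macrophage growth factors Csf1 and Il34. They were taken by symbol from a table of 32047 genes, and all 10 were found. The table covers 12 libraries of poly(A) RNA from kidney tissue in 3 groups of 4. In AKI_A_FGF23_R176QR179Q, called the variant group below, a variant of the hormone FGF23 was overexpressed and an acute kidney injury model that the labels call RM-AKI was induced 3 weeks later. AKI_A_mcherry carries the name of the red fluorescent protein mCherry and of the same injury. NC is not spelled out in the labels and is taken as the uninjured reference, as far as its injury genes allow. Strain, sex, age, the vector, the day of collection and whether each library is a different animal are not stated. The p-values therefore cover the spread among libraries, which may be technical. The variant group holds replicates 1, 2, 3 and 5, and each of the other groups replicates 1 to 4. No uninjured group with the variant and none with mCherry alone was analysed here.

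Cytokines are secreted proteins by which injured tubule cells, resident macrophages and incoming leukocytes signal to each other in the kidney. IL-6, IL-11 and LIF each bind a receptor of their own and share the subunit gp130, which signals through the transcription factor STAT3. Osmr encodes the receptor subunit that pairs with gp130 to bind oncostatin M. IL-1β, IL-18 and IL-33 belong to a family whose receptors signal through MyD88 to NF-κB, and the first pair are cut to their active form by caspase-1. CSF1 and IL-34 are unrelated in sequence, bind the same receptor, CSF1R, and keep macrophages alive and dividing.

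Library totals were 55324078 to 70638283 counts. The label check on Fgf23 held, with 320 to 517 counts per variant group library and 0 in the other 8. Havcr1, which encodes the tubule injury molecule KIM-1, was at 538 to 1573 CPM in the variant group, 1880 to 3653 CPM in AKI_A_mcherry and 1.82 to 4.70 CPM in NC, so the injury labels hold in every library. CPM is the count scaled to library size, after TMM scaling. The summed level of 5 injured-tubule markers was 691 to 2131 CPM in the variant group, 4094 to 5039 CPM in AKI_A_mcherry and 14.0 to 23.0 CPM in NC. That of 5 proximal tubule markers was 1171 to 2467 CPM in the variant group, 705 to 818 CPM in AKI_A_mcherry and 6250 to 9371 CPM in NC. In the variant group 3 of these 5 lay wholly above AKI_A_mcherry and 0 wholly below it, beside 15.3% and 13% of all genes. Slc34a1, named after its values were seen, was the largest part in NC, with a mean of 4608 CPM. It overlapped between the injured groups, at 301 to 826 CPM in the variant group and 327 to 368 CPM in AKI_A_mcherry. None of the 68 cell type markers found was at 0 in all 12 libraries. Against NC, most of the 10 genes moved with the summed injured-tubule markers. Between the injured groups, only Lif, Osmr, Il18 and Il34 of the 10 passed a test in the direction of that sum. The part of the markers in the results below was not tested. In such bulk samples, fewer cells of a type and less RNA per cell cannot be told apart.

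In AKI_A_mcherry, 8 of the 10 genes were higher than in NC, 0 were lower, and Il18 and Tnf did not pass (edgeR quasi-likelihood test, adjusted p under 0.05). Of all 18724 genes tested in that comparison, 27.2% were higher and 26% lower. The median log2 fold change of the 10 genes was 2.26, against -0.00264 over all genes. In the variant group against AKI_A_mcherry, Lif, Osmr, Il18 and Il34 were lower and 0 of the 10 were higher, where 11.4% of all 18824 genes were lower and 11.7% higher. The median there was -0.59 for the 10 genes and 0.00837 over all genes. Against NC, 8 of the 10 were higher in the variant group and Il18 was lower, where 21.7% of all 19005 genes were higher and 20.6% lower, with medians of 1.87 and 0.0109. By ranges, 8 of the 10 genes lay wholly above NC in AKI_A_mcherry and 0 wholly below it, where 26% and 25.4% of all genes did. Of the 10, 0 in the variant group lay wholly above AKI_A_mcherry and 4 wholly below it (15.3% and 13% of all genes), and 9 lay wholly above NC and 0 wholly below it (22.1% and 19.6% of all genes). The 3 comparisons share groups, so their counts do not stand apart from each other. Il6, Il11 and Tnf reached the minimum count of the filter in 0 or 1 of the 4 NC libraries, so they entered the comparisons with NC through the injured libraries, and a count over the 10 genes there is a description.

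**Figure D1:**
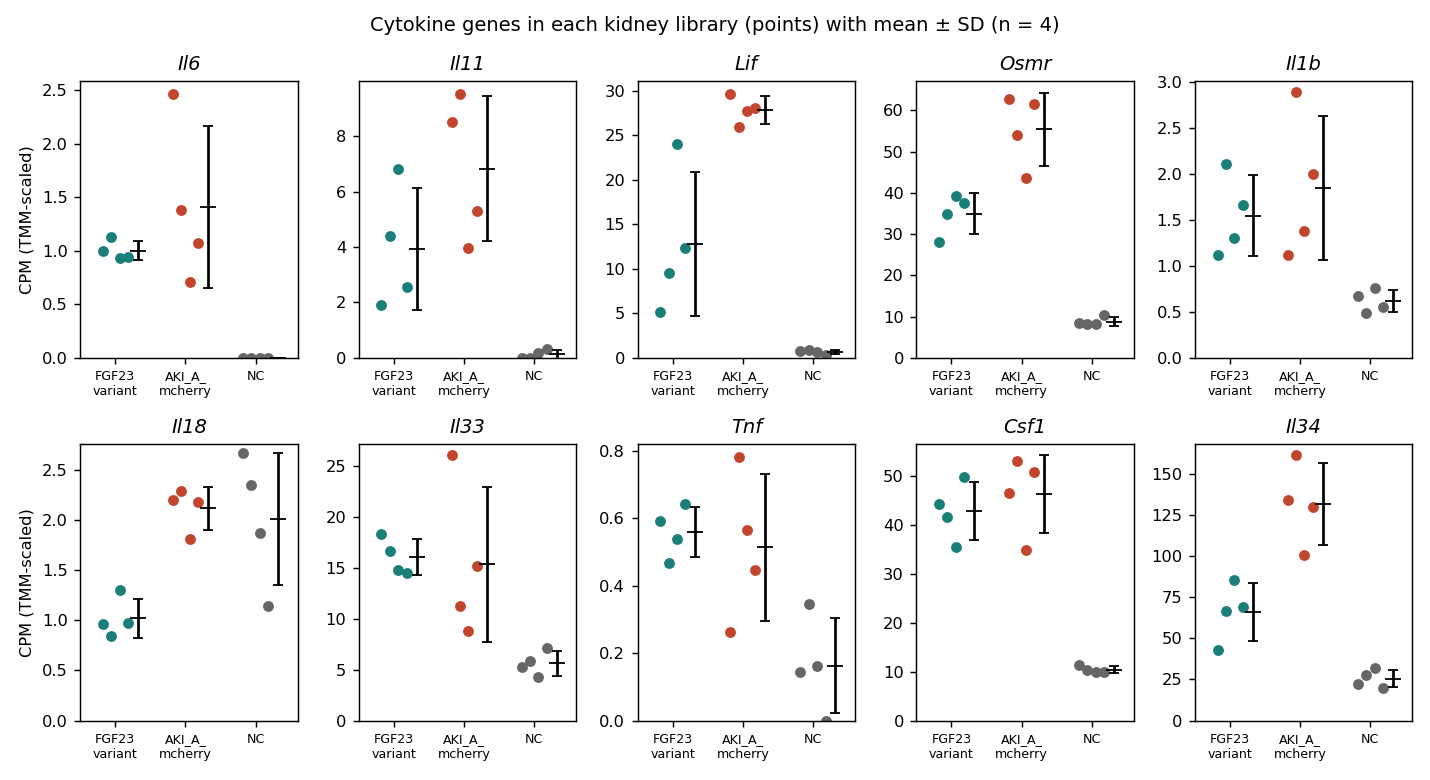
Each panel plots the CPM of 1 gene on a linear axis that starts at 0, for the 4 libraries of the variant group, AKI_A_mcherry and NC, with points for libraries and black bars for mean ± SD. Lif lies at 25.9 to 29.7 CPM in AKI_A_mcherry and below 0.90 CPM in NC, while Il18 overlaps between AKI_A_mcherry and NC.

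The IL-6 family members Il6, Il11, Lif and Osmr were all higher in AKI_A_mcherry and in the variant group than in NC, with no overlap between injured libraries and NC for any of the 4. To show the upstream sequence of these genes, which moved together, RefSeq promoter windows on mouse build GRCm38.p6 were searched on both strands for AP-1 (TGANTCA), STAT (TTCNNNGAA), NF-κB (by its common consensus) and the TATA box (TATAAA). A window runs from 250 bases before to 50 after the gene start. Of the 10 genes, 9 had a window and Il34 had none; 11 windows were found in all. AP-1 letters stand in 7.81% of 32851 RefSeq windows, STAT letters in 8.30%, NF-κB letters in 4.51% and TATAAA in 13.6%. The windows printed were chosen after this search because each holds AP-1 letters, and the capitals mark AP-1 and, in Il6, also NF-κB. They are Il6 at chr5:30012864-30013163 (plus strand), the second Il11 window at chr7:4778092-4778391 (minus strand), Lif at chr11:4257318-4257617 (plus strand) and Osmr at chr15:6874264-6874563 (minus strand), each from 5′ to 3′.
Il6: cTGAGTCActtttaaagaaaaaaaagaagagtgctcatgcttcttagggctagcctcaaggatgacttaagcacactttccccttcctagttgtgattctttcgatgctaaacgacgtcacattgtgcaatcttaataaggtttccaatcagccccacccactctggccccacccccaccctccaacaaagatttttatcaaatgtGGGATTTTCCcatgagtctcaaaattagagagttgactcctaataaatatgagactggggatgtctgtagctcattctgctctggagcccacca
Il11: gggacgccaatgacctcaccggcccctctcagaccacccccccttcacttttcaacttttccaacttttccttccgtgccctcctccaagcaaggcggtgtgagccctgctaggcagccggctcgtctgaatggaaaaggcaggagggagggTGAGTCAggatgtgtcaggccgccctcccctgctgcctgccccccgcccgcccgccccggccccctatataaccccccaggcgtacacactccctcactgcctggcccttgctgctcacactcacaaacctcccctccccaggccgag
Lif: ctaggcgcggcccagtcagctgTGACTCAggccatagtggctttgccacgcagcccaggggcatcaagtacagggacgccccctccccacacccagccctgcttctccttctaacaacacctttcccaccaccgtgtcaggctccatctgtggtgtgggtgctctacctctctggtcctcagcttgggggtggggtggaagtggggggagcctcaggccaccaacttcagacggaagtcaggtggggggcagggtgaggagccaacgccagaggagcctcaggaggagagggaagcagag
Osmr: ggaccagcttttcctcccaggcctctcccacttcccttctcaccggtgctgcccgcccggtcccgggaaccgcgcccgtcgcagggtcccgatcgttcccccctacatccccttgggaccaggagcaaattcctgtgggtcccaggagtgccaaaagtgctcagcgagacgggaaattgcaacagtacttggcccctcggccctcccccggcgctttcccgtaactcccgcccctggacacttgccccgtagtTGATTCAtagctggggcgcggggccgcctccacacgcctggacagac
Counted from the gene start, the AP-1 letters begin at -249 in Il6, -98 in Il11, -228 in Lif and 4 in Osmr, and the NF-κB letters of Il6 begin at -44. The AP-1 pattern searched allows any middle base, and so does its share of 7.81%. Il6 and Il11 hold TGAGTCA and Lif TGACTCA, whereas Osmr holds TGATTCA, which also lies after the gene start. Among the other windows, Csf1 holds NF-κB letters at -154, and TATAAA lies at -31 in Il1b, at -29 in Tnf and at -203 and -29 in the first and second Il33 windows, and on the other strand at -175 in Il18. No member window holds the STAT letters searched. The libraries measured RNA and not binding, so a match describes the letters in the window.

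Il6, the founding member of the family and an inducer of acute-phase genes, had 78, 87, 66 and 66 counts in the variant group (1.00, 1.13, 0.935 and 0.943 CPM), 141, 69, 45 and 72 counts in AKI_A_mcherry (2.47, 1.38, 0.708 and 1.07 CPM) and 0 counts in all 4 NC libraries. It was read in all 8 injured libraries at low level, evenly in the variant group and with replicate 1 of AKI_A_mcherry standing highest. Set against 3 counts per library as a nominal floor, Il6 was 19.8-fold higher in the variant group and 27.8-fold higher in AKI_A_mcherry than NC. The edgeR adjusted p of 4.27e-05 and 1.06e-04 belongs to the fitted fold changes, not to these folds over the floor. Il6 passed the filter through the injured libraries alone, so these p-values are a description. Since the deposited counts favour multiples of 4, a single event may give more than 3 counts, and the folds over the floor are not lower bounds. Between the variant group and AKI_A_mcherry the Il6 groups overlapped, with a log2 fold change of -0.50 ± 0.37 (SE, edgeR adjusted p = 0.354).

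Il11, a cytokine linked to fibrosis and to stressed epithelium, was at 1.90, 4.401, 6.83 and 2.56 CPM in the variant group, 8.51, 9.51, 3.98 and 5.31 CPM in AKI_A_mcherry and 0, 0, 0.162 and 0.335 CPM in NC. In NC it had 0, 0, 10 and 21 counts, whereas the lowest injured library had 148. Its log2 fold change was 5.73 ± 0.82 in AKI_A_mcherry against NC and 4.91 ± 0.86 in the variant group against NC (SE, edgeR adjusted p = 1.91e-04 and 0.00101). Il11 entered both comparisons through the injured libraries, so these p-values are a description. The injured groups overlapped, since replicates 2 and 3 of the variant group reached the range of AKI_A_mcherry. The log2 fold change between them was -0.81 ± 0.41 (edgeR adjusted p = 0.176), and without replicate 3 of the variant group it was -1.22 (adjusted p = 0.0496).

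Lif, leukemia inhibitory factor, was at 5.16, 9.58, 24.0 and 12.4 CPM in the variant group, 29.7, 25.9, 27.8 and 28.0 CPM in AKI_A_mcherry and 0.799, 0.899, 0.615 and 0.351 CPM in NC. The AKI_A_mcherry libraries lay close together, with a coefficient of variation of 5.51%, whereas those of the variant group spread over a coefficient of variation of 63.0%, with replicate 3 near AKI_A_mcherry. The groups did not overlap in any of the 3 comparisons. On the log2 scale the fold change was 5.39 ± 0.25 in AKI_A_mcherry against NC and 4.25 ± 0.49 in the variant group against NC (SE, edgeR adjusted p = 1.05e-07 and 6.48e-05). In the variant group against AKI_A_mcherry it was -1.14 ± 0.37, just past the threshold (edgeR adjusted p = 0.0478). That call was lost on leaving out any single library other than replicate 3 of the variant group (adjusted p = 0.0662 to 0.12), and without replicate 3 the log2 fold change was -1.64 (adjusted p = 0.00393). It was also lost with DESeq2 (adjusted p = 0.0510), with no filter on low counts (0.0774) and with library totals alone (0.0806). The replicate number as a block in the fit ended it as well. That block leaves fewer degrees of freedom for estimating spread, here and for the genes below.

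Osmr was at 28.1, 34.9, 39.3 and 37.6 CPM in the variant group, 62.6, 53.9, 43.5 and 61.6 CPM in AKI_A_mcherry and 8.35, 8.21, 8.17 and 10.4 CPM in NC. The groups formed 3 separate ranges, with the variant group in the middle. In edgeR the log2 fold change was 2.66 ± 0.14 in AKI_A_mcherry against NC, 1.98 ± 0.13 in the variant group against NC and -0.68 ± 0.14 in the variant group against AKI_A_mcherry (SE, edgeR adjusted p = 2.16e-07, 1.73e-06 and 0.00898). The Osmr call between the injured groups held on leaving out each of the 8 libraries in turn. Osmr did not pass there with the replicate number as a block in the fit (edgeR adjusted p = 0.0829). Its ligand gene Osm, named for that role after its values were seen, had 4, 4, 0 and 4 counts in the variant group, 7, 60, 20 and 24 counts in AKI_A_mcherry and 0, 4, 4 and 0 counts in NC, too few to pass the filter in any comparison.

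Other genes of this family moved in different directions. Of 12 listed genes of ligands and receptors, 10 passed the filter. Of these, 3 were higher and 3 lower in AKI_A_mcherry than in NC, beside 27.2% and 26% over all genes. In the variant group against AKI_A_mcherry, 2 were higher and 1 lower, beside 11.7% and 11.4% over all genes. Clcf1, a ligand of the ciliary neurotrophic factor receptor, averaged 26.8 ± 4.98 CPM in the variant group, 75.7 ± 16.7 CPM in AKI_A_mcherry and 4.82 ± 1.11 CPM in NC (SD, n = 4 each). It was lower in the variant group than in AKI_A_mcherry by a log2 fold change of -1.51 ± 0.18 (SE, edgeR adjusted p = 7.81e-04). Cntfr, the receptor subunit of that ligand, went the opposite way, with 5.60 ± 1.09 CPM in the variant group, 2.10 ± 0.557 CPM in AKI_A_mcherry and 7.80 ± 1.39 CPM in NC (log2 fold change 1.40 ± 0.24 between the injured groups, edgeR adjusted p = 0.00402). Among the receptors of the listed ligands, Lifr, the LIF receptor, averaged 71.0 ± 6.09 CPM in the variant group, 55.0 ± 0.994 CPM in AKI_A_mcherry and 80.4 ± 5.90 CPM in NC. Lifr was higher in the variant group than in AKI_A_mcherry (log2 0.35 ± 0.09, edgeR adjusted p = 0.0170), so ligand and receptor differed in sign between these groups. The shared subunit gene Il6st averaged 164 ± 12.6 CPM in the variant group, 135 ± 15.5 CPM in AKI_A_mcherry and 148 ± 14.0 CPM in NC, and did not pass in any comparison, but passed in both of the variant group with library totals alone (edgeR adjusted p = 0.0205 against AKI_A_mcherry and 0.0016 against NC). Lifr and Il6st were named after their values were seen, for their roles as receptors.

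Genes listed here as responses to STAT3 and NF-κB were counted in the same way, and whether these factors drive each of them was not tested. Of 19 such genes, 13 of 17 tested were higher and 0 lower in AKI_A_mcherry than in NC, beside 27.2% higher and 26% lower over all genes. Among the 13 is Saa3, named after its values were seen, with 0 counts in all 4 NC libraries. It entered that comparison through the injured libraries, so the count of 13 is a description. Set against AKI_A_mcherry, 1 of 19, Cish, was higher and 3 were lower in the variant group, beside 11.7% higher and 11.4% lower over all genes. The fibrinogen chain genes Fgb and Fgg, acute-phase genes, averaged 74.7 ± 58.1 and 298 ± 206 CPM in the variant group, 144 ± 50.7 and 592 ± 224 CPM in AKI_A_mcherry, and 0.685 ± 0.436 and 6.74 ± 1.12 CPM in NC (SD, n = 4 each). Fgb was 208-fold and Fgg 88.2-fold higher in AKI_A_mcherry than in NC (edgeR adjusted p = 4.30e-07 and 1.27e-07). Between the injured groups neither passed (log2 fold change -0.96 ± 0.52 and -1.0 ± 0.49, edgeR adjusted p = 0.204 and 0.161), but both did without replicate 3 of the variant group (adjusted p = 0.0345 and 0.0389). Socs3, a STAT3-induced inhibitor of cytokine signalling named after its values were seen, averaged 44.6 ± 19.3 CPM in the variant group, 72.5 ± 12.2 CPM in AKI_A_mcherry and 3.01 ± 0.536 CPM in NC. Its log2 fold change was 4.59 ± 0.18 in AKI_A_mcherry against NC (edgeR adjusted p = 5.20e-08) and -0.72 ± 0.27 in the variant group against AKI_A_mcherry, which did not pass (adjusted p = 0.0835) and passed without replicate 3 of the variant group (adjusted p = 0.0127). Cish, another inhibitor of cytokine signalling, was higher in the variant group, at 53.9 ± 4.82 CPM, than in AKI_A_mcherry, at 35.3 ± 3.54 CPM (log2 0.60 ± 0.10, edgeR adjusted p = 0.00400), a call lost when all 12 libraries shared 1 fit (adjusted p = 0.0966).

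In the IL-1 family Il1b and Il33 were higher than NC in both injured groups and did not pass between them, while Il18 was lower in the variant group. Il1b, encoding the pyrogenic cytokine IL-1β, was at 1.12, 2.11, 1.30 and 1.66 CPM in the variant group, 1.12, 2.89, 1.38 and 2.00 CPM in AKI_A_mcherry and 0.672, 0.484, 0.761 and 0.558 CPM in NC. The injured groups covered nearly the same range, and both lay above NC without overlap. The fitted log2 fold change was 1.58 ± 0.36 in AKI_A_mcherry against NC, 1.30 ± 0.29 in the variant group against NC and -0.27 ± 0.34 between the injured groups (SE, edgeR adjusted p = 0.00382, 0.00459 and 0.600). The call of the variant group against NC was lost with the replicate number as a block in the fit (edgeR adjusted p = 0.107).

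Il18, which is known to be made by tubule epithelium as well as by myeloid cells, was at 0.963, 0.846, 1.30 and 0.971 CPM in the variant group, 2.20, 2.29, 1.81 and 2.18 CPM in AKI_A_mcherry and 2.67, 2.35, 1.88 and 1.15 CPM in NC. Every library of the variant group lay below every AKI_A_mcherry library, and only replicate 4 of NC overlapped the variant group. Il18 was lower in the variant group than in AKI_A_mcherry by a log2 fold change of -1.07 ± 0.24 (SE, edgeR adjusted p = 0.0117). That call held on leaving out each library in turn. With the replicate number as a block in the fit, Il18 passed neither there (edgeR adjusted p = 0.106) nor against NC. Against NC it was lower by -0.99 ± 0.30 on the log2 scale (edgeR adjusted p = 0.0205), a call lost without replicate 2 of the variant group (adjusted p = 0.0574), without replicate 1 of NC (0.0553), without replicate 2 of NC (0.0561) and with library totals alone (0.0875). Between AKI_A_mcherry and NC the log2 fold change was 0.08 ± 0.28 (edgeR adjusted p = 0.833), and it turned to -0.12 without replicate 4 of NC.

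The genes of the IL-18 receptor were also lower in the variant group than in AKI_A_mcherry. Il18r1, the ligand-binding subunit, averaged 0.761 ± 0.0849 CPM in the variant group, 2.93 ± 1.61 CPM in AKI_A_mcherry and 1.01 ± 0.629 CPM in NC (SD, n = 4 each). Its log2 fold change was -1.96 ± 0.36 between the injured groups (SE, edgeR adjusted p = 0.00520). Il18rap, the accessory subunit, named after its values were seen, averaged 0.486 ± 0.157 CPM in the variant group, 1.34 ± 0.562 CPM in AKI_A_mcherry and 0.575 ± 0.177 CPM in NC. Its log2 fold change was -1.48 ± 0.40 between the injured groups (edgeR adjusted p = 0.0259), a call lost on leaving out any of replicates 1, 2 and 5 of the variant group or 1 and 2 of AKI_A_mcherry (adjusted p = 0.0587 to 0.0735). Il18bp, the secreted decoy that binds IL-18 and was likewise chosen after its values were seen, averaged 6.22 ± 0.982 CPM in the variant group, 6.004 ± 0.484 CPM in AKI_A_mcherry and 4.29 ± 0.544 CPM in NC, with a log2 fold change of 0.03 ± 0.16 between the injured groups (edgeR adjusted p = 0.897). The 9 listed lymphocyte markers, a class of cells known to carry the IL-18 receptor, summed to 1.26 to 3.26 CPM in the variant group, 1.12 to 2.01 CPM in AKI_A_mcherry and 3.52 to 4.96 CPM in NC. Of these 9 markers, 2 were at 0 in all 4 AKI_A_mcherry libraries, and their part in the receptor values was not tested.

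Il33, an alarmin held in the nucleus of stromal, endothelial and epithelial cells, was at 18.3, 16.6, 14.8 and 14.5 CPM in the variant group, 26.1, 11.3, 8.79 and 15.2 CPM in AKI_A_mcherry and 5.26, 5.84, 4.24 and 7.11 CPM in NC. The variant group libraries fell inside the wider range of AKI_A_mcherry, and all injured libraries lay above NC. Its log2 fold change was 1.45 ± 0.31 in AKI_A_mcherry against NC, 1.5 ± 0.16 in the variant group against NC and 0.05 ± 0.29 between the injured groups (SE, edgeR adjusted p = 0.00267, 4.27e-05 and 0.913). The sign between the injured groups was negative, at -0.01 to -0.14, without replicate 1 of the variant group or without replicate 2 or 3 of AKI_A_mcherry, and at -0.0028 with limma-voom. The coefficient of variation of Il33 was 11% in the variant group and 49.8% in AKI_A_mcherry. The summed level of 6 fibroblast and pericyte markers was 427 to 466 CPM in the variant group, 179.2 to 439 CPM in AKI_A_mcherry and 233 to 337 CPM in NC, and that of 5 endothelial markers was 205 to 256 CPM in the variant group, 132 to 200 CPM in AKI_A_mcherry and 178 to 227 CPM in NC. Of the 6 fibroblast and pericyte markers, 2 were higher and 3 lower in AKI_A_mcherry than in NC, beside 27.2% and 26% over all genes. In the variant group against AKI_A_mcherry, 3 were higher and 0 lower, beside 11.7% and 11.4% over all genes. The part of the fibroblast, pericyte and endothelial markers in the Il33 values was not tested. Il1rl1, the IL-33 receptor gene, named after its values were seen, averaged 0.541 ± 0.143 CPM in the variant group, 0.577 ± 0.326 CPM in AKI_A_mcherry and 0.281 ± 0.0604 CPM in NC and did not pass in any comparison (edgeR adjusted p = 0.0731 to 0.891), but passed in the variant group against NC with library totals alone (0.0175).

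Il1rn, which encodes the natural antagonist of the IL-1 receptor, had a larger fold change against NC than Il1b, a difference that was not tested. It averaged 6.27 ± 0.55 CPM in the variant group, 13.5 ± 1.13 CPM in AKI_A_mcherry and 0.244 ± 0.193 CPM in NC (SD, n = 4 each). On the log2 scale the fold change was 5.79 ± 0.44 in AKI_A_mcherry against NC, 4.67 ± 0.45 in the variant group against NC and -1.12 ± 0.13 in the variant group against AKI_A_mcherry (SE, edgeR adjusted p = 2.37e-06, 2.19e-05 and 6.61e-04). On the FPKM scale, which divides by gene length, the ratio of Il1rn to Il1b in each library was 1.70, 1.10, 1.74 and 1.35 in the variant group, 3.83, 1.73, 3.28 and 2.48 in AKI_A_mcherry and 0.103, 0.381, 0.0303 and 0.130 in NC. The antagonist thus exceeded Il1b in all 8 injured libraries and in 0 of the 4 NC libraries, a ratio chosen after its values were seen and given without a test. In NC the Il1rn level was near the floor, at 0.03, 0.08, 0.01 and 0.03 FPKM. The NC ratios and the Il1rn fold changes against NC are therefore coarse. Over the whole IL-1 list of 10 genes, 9 were found and tested. Of these, 5 were higher and 1 lower in AKI_A_mcherry than in NC, beside 27.2% and 26% over all genes. In the variant group against AKI_A_mcherry, 1 was higher and 3 lower, beside 11.7% and 11.4% over all genes. Of 8 genes of cytokine processing, such as the inflammasome genes Nlrp3, Pycard and Casp1, 2 were higher and 1 lower in AKI_A_mcherry than in NC. Between the injured groups, 0 of these 8 passed in either direction. The shares over all genes given for the IL-1 list apply to these counts too. The lower gene was Nlrc4, an inflammasome sensor, at 4.45 ± 1.49 CPM in the variant group, 3.79 ± 0.961 CPM in AKI_A_mcherry and 6.97 ± 0.857 CPM in NC (log2 -0.87 ± 0.22 in AKI_A_mcherry against NC, edgeR adjusted p = 0.00695).

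Tnf, encoding tumour necrosis factor, had the lowest level per gene length of the 10 genes in both injured groups. It was at 0.591, 0.469, 0.539 and 0.643 CPM in the variant group, 0.262, 0.782, 0.566 and 0.448 CPM in AKI_A_mcherry and 0.145, 0.346, 0.162 and 0 CPM in NC, from 15 to 46 counts in the injured libraries and 0 to 20 in NC. All 4 libraries of the variant group lay above NC, while replicate 1 of AKI_A_mcherry lay within NC. None of the 3 comparisons passed: the log2 fold change was 1.65 ± 0.81 in AKI_A_mcherry against NC, 1.76 ± 0.73 in the variant group against NC and 0.11 ± 0.40 between the injured groups (SE, edgeR adjusted p = 0.112, 0.0781 and 0.867). The variant group passed against NC without replicate 2 of NC (edgeR adjusted p = 0.0415), with DESeq2 (0.0432), with limma-voom (0.0449) and with library totals alone (0.0355). Tnf entered both comparisons with NC through the injured libraries, so its p-values against NC are a description. Both TNF receptor genes, named after their values were seen, were higher in AKI_A_mcherry than in NC. Tnfrsf1a averaged 167 ± 24.0 CPM in the variant group, 178.7 ± 4.41 CPM in AKI_A_mcherry and 58.7 ± 4.02 CPM in NC (log2 1.61 ± 0.09 in AKI_A_mcherry against NC, edgeR adjusted p = 2.01e-07). Tnfrsf1b averaged 13.03 ± 2.28 CPM in the variant group, 10.7 ± 1.11 CPM in AKI_A_mcherry and 4.07 ± 1.09 CPM in NC (log2 1.40 ± 0.21 in AKI_A_mcherry against NC, edgeR adjusted p = 2.19e-04). Of 7 listed genes of TNF signalling, 6 were tested. Of these, 4 were higher and 0 lower in AKI_A_mcherry than in NC, beside 27.2% and 26% over all genes. In the variant group against AKI_A_mcherry, 0 were higher and 2 lower, beside 11.7% and 11.4% over all genes.

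Of the ligands of CSF1R, Il34 had the highest level per gene length of the 10 genes in every group, and the fold changes of Il34 and Csf1 parted between the injured groups. Csf1 was at 44.3, 41.7, 35.4 and 49.8 CPM in the variant group, 46.5, 53.0, 35.0 and 50.9 CPM in AKI_A_mcherry and 11.4, 10.3, 9.9998 and 9.90 CPM in NC. The injured groups overlapped almost fully and stood well above NC. In edgeR the log2 fold change was 2.16 ± 0.14 in AKI_A_mcherry against NC, 2.02 ± 0.11 in the variant group against NC and -0.13 ± 0.14 between the injured groups (SE, edgeR adjusted p = 7.77e-07, 7.48e-07 and 0.544), and the last was 0.08 with library totals alone.

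Il34 was at 42.8, 66.9, 85.4 and 69.0 CPM in the variant group, 134, 161, 100.5 and 130.1 CPM in AKI_A_mcherry and 22.5, 27.6, 32.1 and 20.1 CPM in NC. As with Osmr, the 3 groups did not overlap and the variant group lay in the middle. The fitted log2 fold change was 2.37 ± 0.19 in AKI_A_mcherry against NC, 1.35 ± 0.21 in the variant group against NC and -1.01 ± 0.20 in the variant group against AKI_A_mcherry (SE, edgeR adjusted p = 2.77e-06, 4.65e-04 and 0.00793). The Il34 call between the injured groups held on leaving out each library in turn. With the replicate number as a block in the fit, Il34 did not pass there (edgeR adjusted p = 0.0538). The ratio of Il34 to Csf1 on the FPKM scale was 2.601, 4.33, 6.50 and 3.73 in the variant group, 7.78, 8.21, 7.75 and 6.90 in AKI_A_mcherry and 5.31, 7.18, 8.67 and 5.46 in NC. All 4 ratios of the variant group lay below all 4 of AKI_A_mcherry, while they overlapped those of NC; this ratio was chosen after its values were seen and was not tested.

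Their receptor gene Csf1r was lower than in NC in both injured groups, where both ligands were higher. It averaged 37.5 ± 5.21 CPM in the variant group, 24.2 ± 3.99 CPM in AKI_A_mcherry and 80.3 ± 7.74 CPM in NC (SD, n = 4 each). Its log2 fold change was -1.73 ± 0.14 in AKI_A_mcherry against NC, -1.11 ± 0.11 in the variant group against NC and 0.62 ± 0.14 in the variant group against AKI_A_mcherry (SE, edgeR adjusted p = 2.82e-06, 2.91e-05 and 0.0124). Sdc1, syndecan-1, a cell-surface proteoglycan that IL-34 is known to bind, averaged 41.8 ± 14.5 CPM in the variant group, 120 ± 12.5 CPM in AKI_A_mcherry and 19.4 ± 6.62 CPM in NC, with a log2 fold change of -1.54 ± 0.22 between the injured groups (edgeR adjusted p = 0.00192). The 10 macrophage and monocyte markers, which include Csf1r, summed to 115 to 163 CPM in the variant group, 172 to 314 CPM in AKI_A_mcherry and 130 to 182 CPM in NC. Of these 10, 3 were higher and 2 lower in AKI_A_mcherry than in NC, beside 27.2% and 26% over all genes. In the variant group against AKI_A_mcherry, 1 was higher and 3 lower, beside 11.7% and 11.4% over all genes. Cd68, a lysosomal protein of macrophages, averaged 14.8 ± 4.21 CPM in the variant group, 42.2 ± 14.0 CPM in AKI_A_mcherry and 2.74 ± 0.907 CPM in NC. Adgre1, encoding the macrophage antigen F4/80, was at 2.45 ± 0.514 CPM in the variant group, 1.61 ± 0.715 CPM in AKI_A_mcherry and 3.66 ± 0.502 CPM in NC, so single markers of these cells did not move one way. Both were picked after their values were seen. The 6 neutrophil markers summed to 1.89 to 6.51 CPM in the variant group, 3.04 to 11.2 CPM in AKI_A_mcherry and 0.728 to 1.40 CPM in NC.

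**Figure D2:**
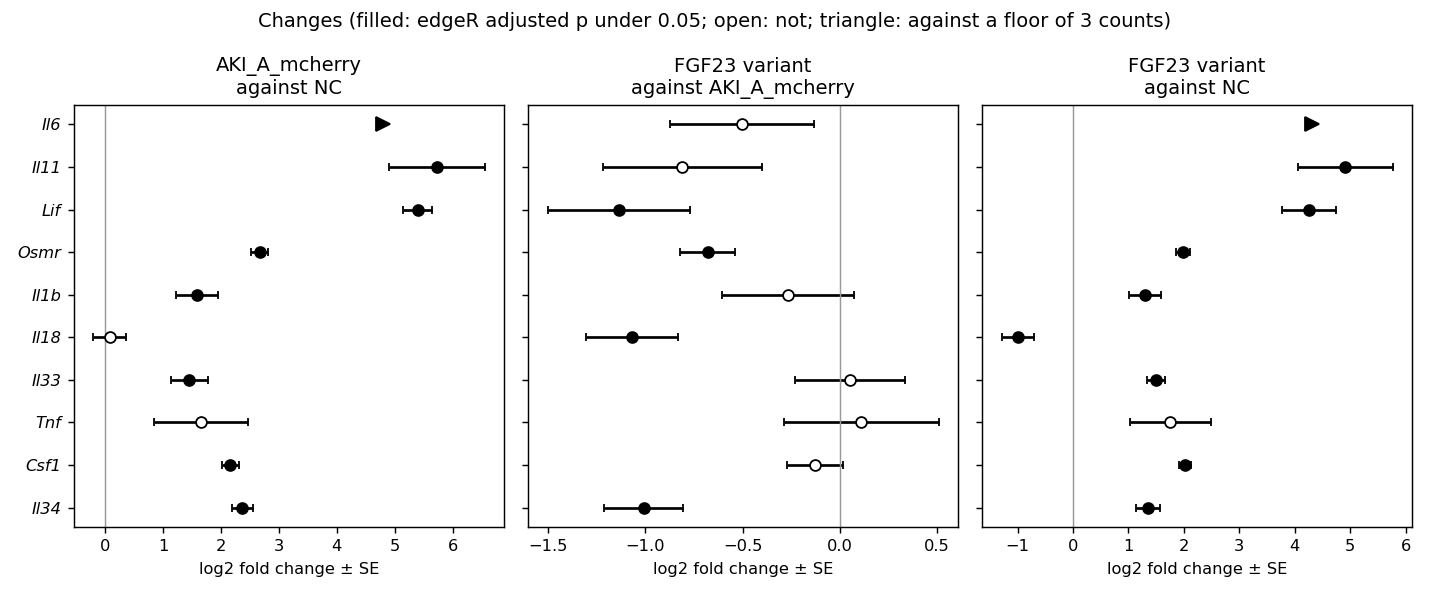
Points give the log2 fold change of each gene with its standard error (edgeR) for AKI_A_mcherry against NC, the variant group against AKI_A_mcherry and the variant group against NC, and filled points passed an adjusted p of 0.05. Il6 against NC is drawn as a triangle at its fold over a nominal floor of 3 counts, and between the injured groups the filled points are Lif, Osmr, Il18 and Il34.

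The order of levels was compared on the deposited FPKM scale. Il34 was highest in the variant group, at 34.8 ± 9.27 FPKM, followed by Csf1 at 8.37 ± 1.18, Il33 at 5.74 ± 0.621, Lif at 3.03 ± 1.92, Osmr at 2.98 ± 0.419, Il11 at 1.94 ± 1.10, Il18 at 1.00 ± 0.195, Il1b at 0.828 ± 0.229, Il6 at 0.415 ± 0.0379 and Tnf at 0.350 ± 0.0516 FPKM (SD, n = 4). Only Il34 from Csf1, Csf1 from Il33, and Il1b from Il6 were separated without overlap between neighbours in that order. In AKI_A_mcherry Il34 was again highest, at 60.2 ± 8.34 FPKM, ahead of Csf1 at 7.89 ± 1.17, Lif at 5.80 ± 0.614 and Il33 at 4.82 ± 2.49, with Tnf last at 0.275 ± 0.107 FPKM, and the steps without overlap were Il34 to Csf1 and Il18 to Il1b. In NC Il34 was also first, at 10.9 ± 2.44 FPKM, and Csf1, Il18 and Il33 followed at 1.64 ± 0.113, 1.61 ± 0.551 and 1.61 ± 0.327 FPKM without separation from each other. Il18 thus stood among the upper 4 of the 10 genes in NC and in the seventh place in both injured groups, while Lif, at 0.125 ± 0.048 FPKM in NC, had the third-highest mean in AKI_A_mcherry. In the variant group the mean of Lif exceeded that of Osmr through replicate 3 alone, at 5.71 against 3.35 FPKM, and Lif was below Osmr in the other 3 libraries.

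**Figure D3:**
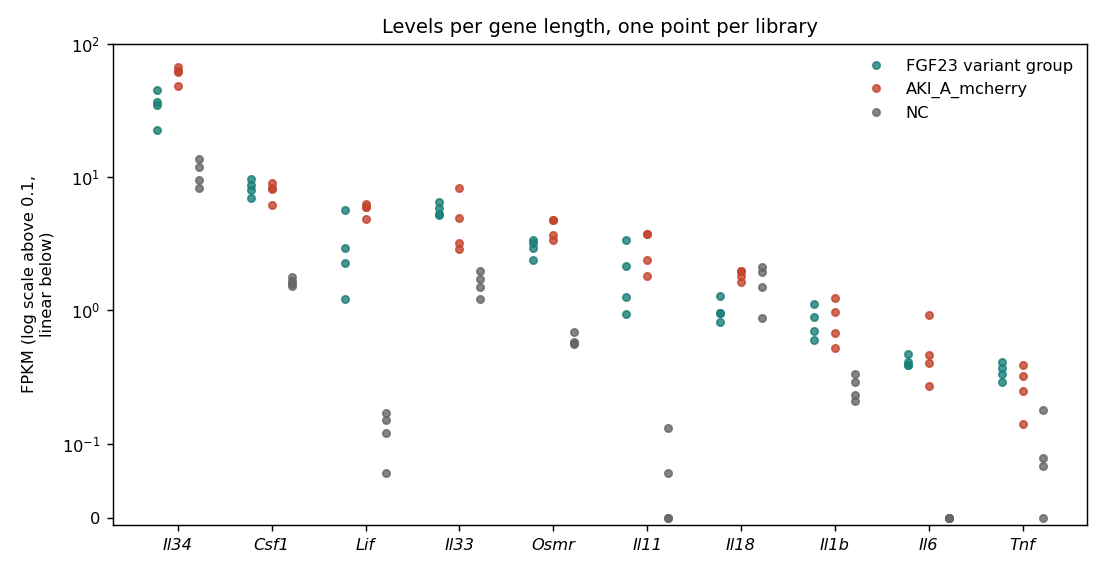
Each point is the FPKM of 1 gene in 1 library on an axis that is logarithmic above 0.1 FPKM and linear below, for the variant group, AKI_A_mcherry and NC. Il34 leads in all 3 groups, at a mean of 34.8 FPKM in the variant group, 60.2 FPKM in AKI_A_mcherry and 10.9 FPKM in NC.

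Within groups the libraries did not rank alike for all genes. Replicate 3 of the variant group was highest for 5 of the 10 genes, Il11, Il18, Il34, Lif and Osmr, and replicate 1 lowest for 5. In AKI_A_mcherry replicate 3 was lowest for 7 and replicate 2 highest for 6. The variant group library with the lowest Lif, Osmr, Il11 and Il34, replicate 1, was also that with the lowest Havcr1, at 538 CPM, and Lcn2, a secreted injury marker named after its values were seen, at 87.1 CPM. The same library was highest of its group for Il33, at 18.3 CPM. In AKI_A_mcherry, replicate 3 had the lowest Havcr1 of its group, at 1880 CPM, but the highest Lcn2, at 1946 CPM. These libraries share their depth and preparation across genes, and the part of either in this order was not tested.

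For each of 9 members the genes closest in pattern were found by Pearson's r of log2(CPM + 1) over the 12 libraries, among 11045 or 11046 genes with a mean of at least 5 CPM. Since the libraries fall into 3 groups, r mainly follows the group means and is a description. Lif was closest to Sox9 (r = 0.994), a transcription factor of injured and regenerating tubules, then Tsc22d1 and Bcl3. Osmr was closest to Zyx (r = 0.996), a focal adhesion protein, Csf1 to Atf5 (r = 0.992) and Il34 to Trim28 (r = 0.986). Il11 was closest to the fibrinogen genes Fgb and Fgg (r = 0.986 and 0.982) and then to Timp1. For Il6 the closest gene was Camk2d (r = 0.968), for Il33 Cyfip1 (r = 0.952), for Il1b Wdr83 (r = 0.925) and for Il18 Nudt14 (r = 0.921). Sox9 itself averaged 13.4 ± 5.97 CPM in the variant group, 35.3 ± 5.02 CPM in AKI_A_mcherry and 0.548 ± 0.154 CPM in NC (SD, n = 4 each).

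Over the whole pathway list of 75 ligands, receptors, transducers and response genes, 74 were found. In AKI_A_mcherry against NC, 38 of 68 tested were higher and 9 lower, beside 27.2% and 26% over all genes, with a median log2 fold change of 0.66. In the variant group against AKI_A_mcherry, 7 of 69 were higher and 13 lower (median -0.14), beside 11.7% higher and 11.4% lower over all genes. Against NC, 28 of 66 were higher and 5 lower in the variant group (median 0.51), beside 21.7% and 20.6% over all genes. Saa3 and Csf3, both named after their values were seen, reached the minimum count of the filter in none of the NC libraries. They entered AKI_A_mcherry against NC through the injured libraries, so each count of listed genes against NC is a description. The 13 lower genes were 8 without replicate 1 or without replicate 5 of the variant group, and 17 without its replicate 3. The 5 lower genes against NC were 2 or 3 without replicate 2 or 5 of the variant group or without any single NC library. Among those 5, Il11ra1, the IL-11 receptor, averaged 54.4 ± 8.82 CPM in the variant group, 55.8 ± 8.42 CPM in AKI_A_mcherry and 76.9 ± 15.4 CPM in NC (log2 -0.52 ± 0.15 in the variant group against NC, edgeR adjusted p = 0.0205), a call lost without replicate 5 of the variant group (adjusted p = 0.0515) and with library totals alone (adjusted p = 0.337).

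**Figure D4:**
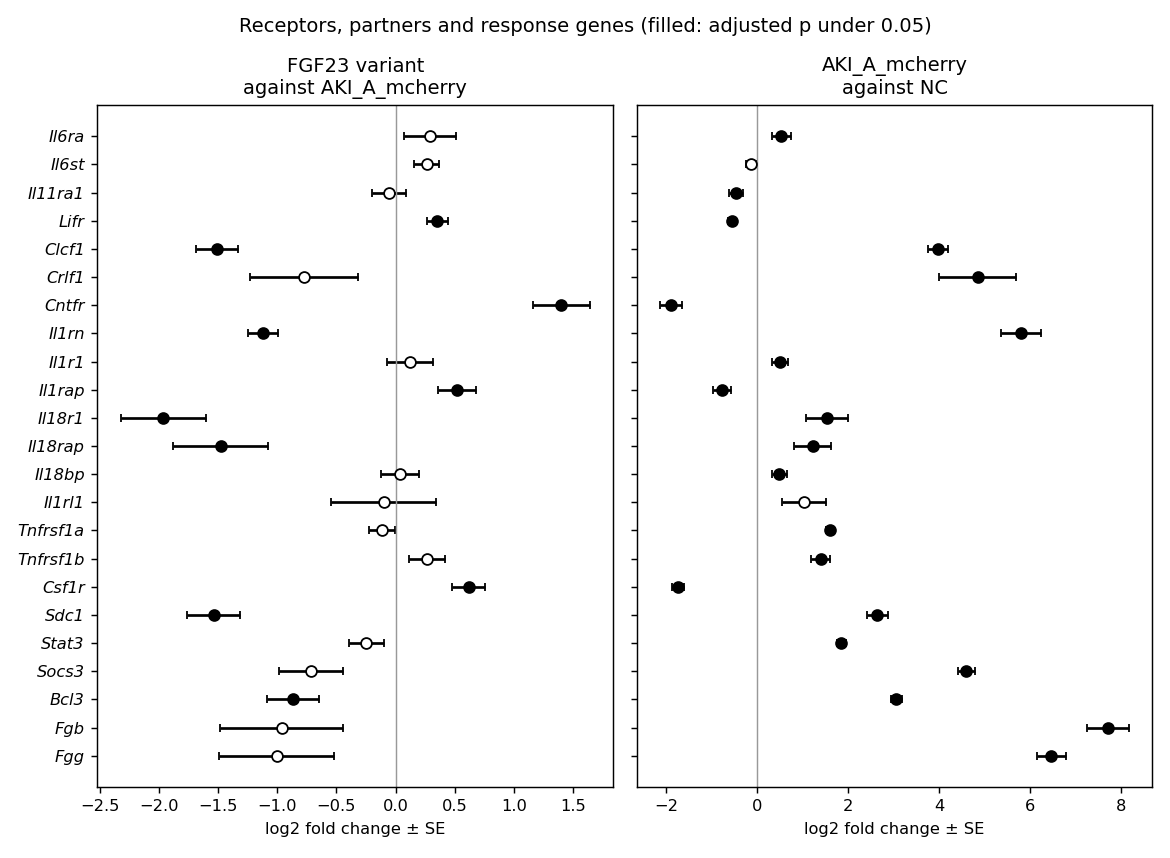
Points give the log2 fold change with its standard error (edgeR) of receptors, partners and response genes, for the variant group against AKI_A_mcherry in the left panel and AKI_A_mcherry against NC in the right, and filled points passed an adjusted p of 0.05. The genes drawn were chosen after their values were seen; Clcf1, Il1rn, Il18r1 and Sdc1 lie left of 0 between the injured groups and right of 0 against NC, and Cntfr and Csf1r do the opposite.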

How the data were processed

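Poly(A) RNA of mouse kidney was sequenced as read pairs from strand-marked libraries, per the labels' protocols. Tools named, per the submitters' processing notes, are StringTie, fastp and edgeR, with the build GRCm39. Aligner, annotation and versions were not given in the sources used here. For each gene and library the authors deposited a read count and an FPKM value, per the file headers. FPKM values, which the authors scaled by gene length and library total, were used for the order of levels and for ratios, with no test. An annotation supplied separately gave a symbol for 31942 gene identifiers and none for 105. The value 4 was found 11995 times among the counts, while 3 and 5 were found 5847 and 3638 times, so counts were not taken as independent molecules, and the nominal floor of 3 counts covers counting error at most. Pairs of libraries in a group had a chi-square of 34.1 to 148 per degree of freedom, and none was counted as a duplicate.

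A comparison was fitted to the 8 libraries of its 2 groups in edgeR 4.0.16 (R 4.3.3), with TMM factors and filterByExpr. The quasi-likelihood F test was adjusted over all tested genes by Benjamini-Hochberg, at 0.05. SE is the absolute log2 fold change divided by the root of F. CPM values use TMM factors of all 12 libraries. The fit was checked on simulated data. Alternatives were DESeq2 1.42.0, limma-voom 3.58.1 with quality weights, RLE factors or library totals in place of TMM, no low-count filter, a block for the replicate number, 1 fit of all 12 libraries, and omission of each library in turn.

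The 10 members, the gene lists and the tests were chosen with earlier results of these data known. Besides the members, up to 3 pathway genes in each direction were named per comparison, those with the largest fold change past the threshold and a mean of at least 1 CPM, together with the 3 genes most like each member in pattern. Genes named outside this rule are said to be so in the text. Promoter windows came from RefSeq on GRCm38.p6, another build than the counts, and were matched by symbol. Tables and plots were made with Python 3.11.15 and matplotlib 3.10.9.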

Additional observations from a re-analysis of the deposited data

Results flagged for a closer look

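Osmr in NC was at 10.4 CPM in replicate 4, against 8.35, 8.21 and 8.17 CPM in replicates 1 to 3. The gap between replicate 4 and its nearest neighbour was 0.919 of the range of the group, above Dixon's critical value at 95% for 4 libraries. Among 29 groups checked, chance flags about 1 in 20. Without that library the Osmr calls against NC were kept in both injured groups.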

How the results depend on the processing

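Over 450 values of the 10 genes under the alternatives, 417 kept their direction and their side of the threshold, 20 no longer passed, 5 newly passed and 8 changed sign. With library totals alone the median of all genes moved to 0.12 in AKI_A_mcherry against NC, 0.21 in the variant group against AKI_A_mcherry and 0.34 in the variant group against NC, and higher against lower calls became 5828 to 3958, 4060 to 1035 and 7829 to 2096. In the variant group against AKI_A_mcherry, 12 pathway genes were then higher instead of 7, and Csf1 changed sign to 0.0821. Against NC, 0 members and 1 pathway gene were lower with library totals, and 2 pathway genes were lower with no filter or with all 12 libraries in 1 fit. Il33 in the variant group against AKI_A_mcherry was -0.0028 with limma-voom. The cause was not tested.

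Leaving out each library in turn gave 2410 to 4259 genes called in the variant group against AKI_A_mcherry (2410 without replicate 1, 2853 without replicate 2 and 2718 without replicate 5 of the variant group), 3 to 5 members lower and 8 to 17 pathway genes lower. Against NC it gave 0 to 1 members lower and 2 to 4 pathway genes lower in the variant group. In AKI_A_mcherry against NC 8 members stayed higher each time. Sign changes were Il18 at -0.12 in AKI_A_mcherry against NC without replicate 4 of NC (up to 0.24 without replicate 1 of NC), and, in the variant group against AKI_A_mcherry, Il33 (highest 0.44) at -0.01 without replicate 1 of the variant group, -0.07 without replicate 2 and -0.14 without replicate 3 of AKI_A_mcherry, Tnf (highest 0.38) at -0.11 without replicate 1 and Il1b (lowest -0.45) at 0.0292 without replicate 2 of AKI_A_mcherry. None of these sign changes passed the test.

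The labels do not say whether replicate numbers pair the samples. Deviations of same-numbered libraries correlated at 0.162, 0.0806 and 0.232 between the injured groups and at -0.377 to 0.116 in the other comparisons. So few values cannot settle whether samples are paired. With the replicate number as a block, on the 3 shared numbers in comparisons of the variant group, 1787 genes, 0 members lower and 3 pathway genes higher were called against AKI_A_mcherry, and 4723 genes, 0 members lower and 2 pathway genes lower against NC. Adjusted p (edgeR) under this block was 0.106 for Il18, 0.0538 for Il34, 0.0791 for Lif and 0.0829 for Osmr against AKI_A_mcherry, and 0.107 for Il1b and 0.0609 for Il18 against NC. That fit kept all 8 libraries of a comparison, but a library with an unshared number does not inform the group difference. Depth limits Il6, Il1b, Il18 and Tnf, which had at most 162 counts in any library.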
